A study of Mus musculus with 5 samples.

Results

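The genes described here encode the membrane transporters of glucose, of lactate and other monocarboxylates, and of amino acids in the families Slc1a, Slc2a, Slc7a, Slc16a and Slc38a, together with the Slc3a heavy chains. The families were picked with earlier results of these data known, and within them every protein-coding gene of the GENCODE M1 annotation of mm9 was taken by its symbol, whatever its peaks, which gave 61 genes out of 22224. Runx3 binding and H3K4me1, a histone mark of enhancers and of the regions beside promoters, were mapped by ChIP-seq in natural killer cells (NKC) purified by negative selection from spleens of ICR mice and grown for 7 days with human recombinant IL-2 at 1000 units/ml. There were 2 Runx3 libraries, 1 H3K4me1 library and 2 control libraries made with non-immune serum (NIS), and every library came from the same kind of culture, in which the labels give all cells, and the study's methods nearly all, as NKp46+. The methods add a FACS sort for DX5+ cells after the negative selection, which the labels do not mention. The number of mice is not given in the sources used here, and neither resting NKC nor Runx3-deficient NKC are part of these libraries. The reads of the 2 Runx3 libraries were joined before peaks were called, and the peak lists hold positions only, so no value here has a replicate error, a peak height or a control value of its own, and no statistical test was run.

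Transporters of the Slc2a family let glucose enter along its gradient, and the Slc16a monocarboxylate transporters carry lactate out of cells that run glycolysis. Activated lymphocytes also take up large amounts of glutamine, leucine and other amino acids through Slc1a5, the Slc7a light chains bound to their Slc3a2 heavy chain, and the Slc38a carriers. Runx3 is a transcription factor of the RUNX family that is expressed in NKC and cytotoxic T cells and recognises a short DNA motif.

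A gene was counted as having a peak when the peak overlapped the gene or its 5 kb flanks by at least 1 bp. Of the 61 transporter genes, 19 had a Runx3 peak (31.1%, 95% Wilson interval 20.9 to 43.6), against 28.9% of all protein-coding genes. H3K4me1 peaks lay at 25 of the 61 (41.0%, 29.5 to 53.5), against 39.8% of all genes, and both kinds at 17 (27.9%, 18.2 to 40.2), against 21.5%. With this window, all 3 shares were near the background, and each background value lay inside the interval of the transporter genes. This depended on the window. When peaks were assigned by the domain rule of GREAT (5 kb upstream and 1 kb downstream of the TSS, extended to the next gene or 1000 kb), 36 of 61 had Runx3 (59.0%, 46.5 to 70.5), against 42.2% of all genes, and 41 had H3K4me1 (67.2%, 54.7 to 77.7), against 52.8%. These background values lay below the intervals. The domains of the transporters were also longer, with a median of 134.9 kb against 90 kb, and the part of length in these shares was not tested. The intervals cover counting error only. Other genes with an Slc symbol gave 74 of 266 with a Runx3 peak (27.8%, 22.8 to 33.5) and 126 of 266 with an H3K4me1 peak (47.4%). The following results are a description of which transporters carried peaks, where the peaks lay and what they held.

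The genes with peaks were also counted by family. A Runx3 peak was found at 2 of 12 Slc2a genes, 4 of 14 Slc16a genes, 4 of 7 Slc1a genes, 5 of 15 Slc7a genes, 3 of 11 Slc38a genes and 1 of 2 Slc3a genes. H3K4me1 peaks were found, in the same order of families, at 6, 7, 4, 4, 3 and 1 genes. Of the 33 amino acid carriers of Slc1a, Slc7a and Slc38a, 12 had Runx3, 11 had H3K4me1 and 10 had both. The intervals of the families overlapped widely, and with 2 to 15 genes in a family no difference between them is drawn from these counts.

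**Figure D1:**
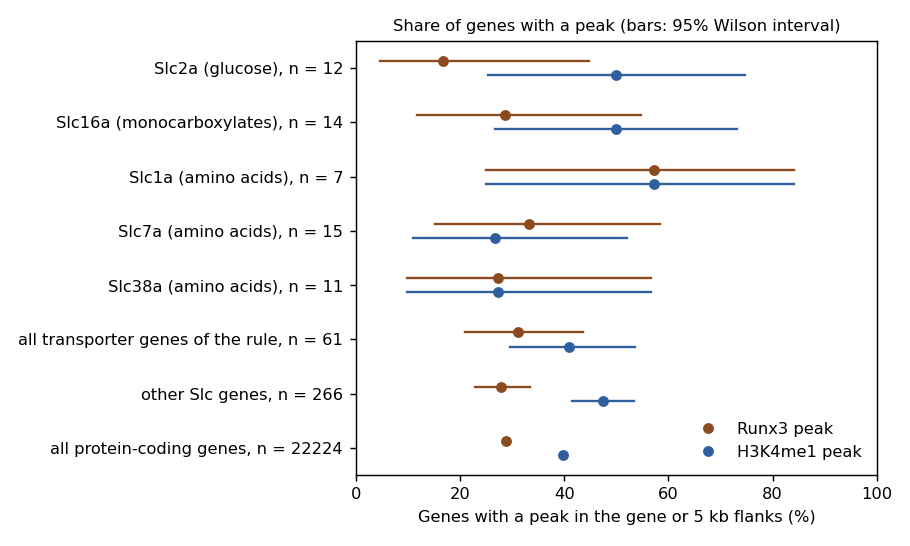
Share of genes with a Runx3 peak or an H3K4me1 peak in the gene or its 5 kb flanks, in percent on the horizontal axis, for 5 transporter families, all 61 transporter genes, 266 other Slc genes and all 22224 protein-coding genes. Points are the shares and lines their 95% Wilson intervals, and all 61 together (31.1% and 41.0%) lie near all genes (28.9% and 39.8%).

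Most genes with Runx3 had a single peak. No Runx3 peak was found at 42 genes, 1 peak at 13, 2 peaks at Slc1a2, Slc1a7, Slc7a5 and Slc38a1, and 3 peaks at Slc2a1 and Slc3a2. The share with at least 2 peaks was 9.84%, against 9.41% of all genes, and that with at least 3 was 3.28%, against 3.54%. These are 26 different peaks, since 1 lay in the windows of both Slc16a11 and Slc16a13, which are neighbours on chromosome 11. The nearest protein-coding TSS belonged to the transporter for 23 of the 26, and 6 also lay in the window of another gene. Counted per gene, 8 of the 27 positions were at a promoter of the gene itself (peak centre within 1 kb of one of its annotated TSSs), 12 in introns, 2 in other exons, 2 upstream and 3 downstream. By any TSS, 9 of the 26 peaks lay at a promoter (34.6%, 19.4 to 53.8). The share was 25.3% of all Runx3 peaks and 34.2% of those in the window of a protein-coding gene.

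**Figure D2:**
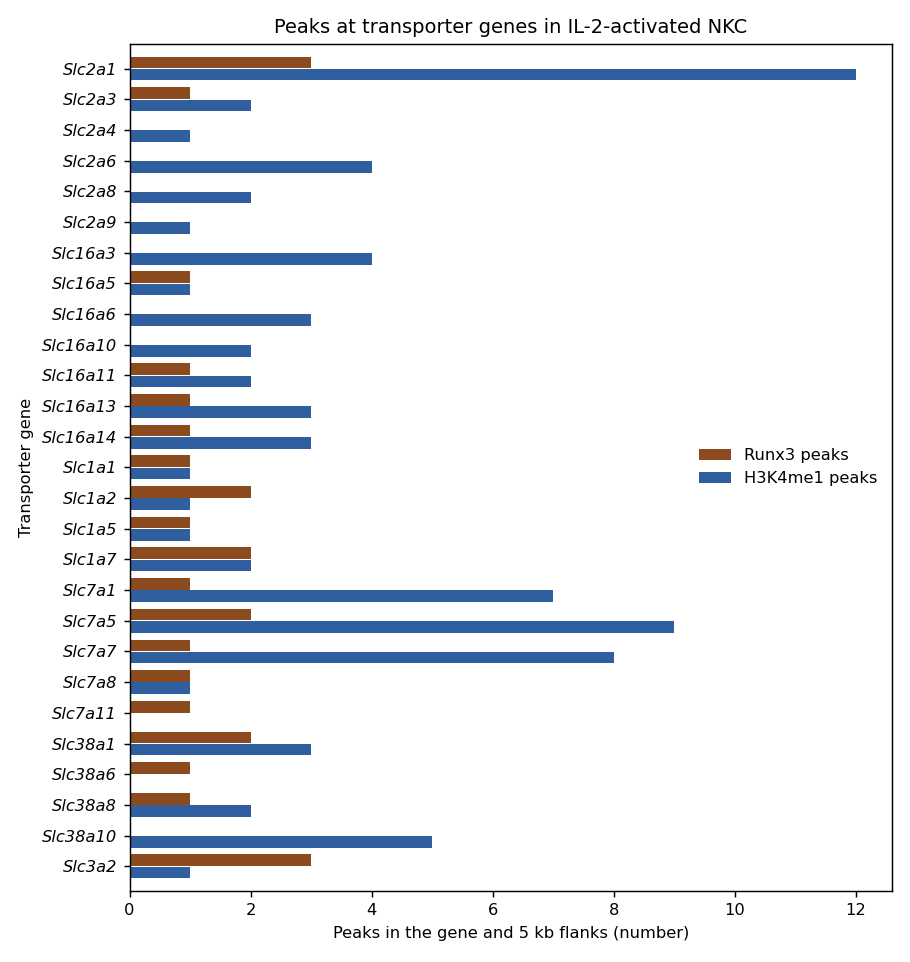
Number of Runx3 peaks (brown) and H3K4me1 peaks (blue) in the gene and its 5 kb flanks, on the horizontal axis, for the 27 transporter genes with at least 1 peak of either kind. Slc2a1 has 3 Runx3 and 12 H3K4me1 peaks, Slc7a5 has 2 and 9, and Slc3a2 has 3 and 1.

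Slc2a1 encodes GLUT1, the main glucose transporter of activated lymphocytes, and had the most peaks of all 61 genes. The gene lies at chr4:118781316-118809935 on the plus strand. A first Runx3 peak, chr4:118780905-118781515, was centred 106 bp upstream of the TSS and did not touch H3K4me1, the nearest H3K4me1 peak being 2438 bp away. Another pair lay side by side in an intron, at chr4:118798118-118799126 and chr4:118799223-118800357, with centres 17306 and 18474 bp downstream of the TSS. H3K4me1 covered 94.8% of the former and 47.6% of the latter, which reached into 2 H3K4me1 peaks, one at either end. The gene and flanks held 12 H3K4me1 peaks that covered 34.5% of the window, and only 0.711% of all genes reached that coverage. No H3K4me1 peak was centred within 1 kb of its TSS. The peak at 18474 bp held 7 RUNX motifs, the largest number among the peaks at these genes.

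Slc2a3 encodes GLUT3, a glucose transporter of high affinity, and had 1 Runx3 peak and 2 H3K4me1 peaks. The Runx3 peak, chr6:122708627-122709145, was intronic by the gene record and 64.9% covered by H3K4me1. It lay 42772 bp inside the record (chr6:122677827-122751658, minus strand) but 15948 bp upstream of the nearest of its other annotated TSSs, so that its place in or before the gene depends on the transcript. A further Runx3 peak, chr6:122760677-122761350, lay 9018 bp beyond the record and so outside the window.

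The motif nearest the peak centre is shown for both glucose transporters, in mm9, on the minus strand, with the RUNX motif in capitals. A RUNX motif here means, on either strand, TGTGGT or the related TGTGGC, or the forms with a CpG, which are TGCGGT and the related TGCGGC. The Slc2a1 stretch comes from the promoter peak and that of Slc2a3 from the intronic peak. Here and below, capitals mark only the motif nearest the peak centre. Further RUNX motifs on either strand may stand in lower case, as in the stretches of Slc2a3 and Slc1a2.
Slc2a1, chr4:118781150-118781200: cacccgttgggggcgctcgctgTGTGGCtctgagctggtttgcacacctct
Slc2a3, chr6:122708954-122709004: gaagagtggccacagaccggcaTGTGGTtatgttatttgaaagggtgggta

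The other Slc2a genes had no Runx3 peak in the window. Slc2a4, the insulin-responsive GLUT4, had 1 H3K4me1 peak, Slc2a6 had 4, Slc2a8 had 2 and Slc2a9, a urate transporter, had 1. H3K4me1 covered 21.1% of the Slc2a6 window, a level that 2.79% of all genes reached. The Runx3 peak nearest to Slc2a8, chr2:32822102-32823355, lay 5154 bp from the gene, just outside the limit of 5 kb, and overlapped an H3K4me1 peak. Slc2a2, Slc2a5, Slc2a7, Slc2a10, Slc2a12 and Slc2a13 had neither kind.

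Among the monocarboxylate transporters, the proteins known to carry lactate in lymphocytes differed. Slc16a1 encodes MCT1, and its window (gene at chr3:104442591-104462385) held neither a Runx3 nor an H3K4me1 peak. Its nearest Runx3 peak, chr3:104315406-104316366, was centred 126705 bp upstream of the TSS, and its nearest H3K4me1 peak 31410 bp downstream. The study lists Slc16a1 among Runx3-regulated genes that could bear on the proliferation of IL-2-activated cytotoxic T cells and/or NKC. It reports lower Slc16a1 expression after loss of Runx3. The study assigned peaks to genes by GREAT, not by 5 kb flanks. Slc16a3 encodes MCT4, the lactate exporter of glycolytic cells, and its window (gene at chr11:120809794-120822182) held 4 H3K4me1 peaks covering 20.1%, a level that 3.16% of all genes reached. One of these was centred 250 bp upstream of the TSS. Slc16a3 had no Runx3 peak in the window, the nearest being chr11:120800169-120800674, which was centred 9373 bp upstream, overlapped H3K4me1 and held 1 RUNX motif.

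The 4 Slc16a genes with Runx3 peaks encode less studied members of the family. The peak chr11:70034360-70035052 was centred 210 bp upstream of the TSS of Slc16a13 and lay 8452 bp downstream of that of Slc16a11. It did not overlap H3K4me1, but an H3K4me1 peak lay 649 bp from it, and the windows of Slc16a13 and Slc16a11 held 3 and 2 such peaks. Slc16a14 had an intronic peak 19811 bp from its TSS, which H3K4me1 missed by 180 bp. The peak assigned to Slc16a5 lay downstream of the gene, at the TSS of Armc7. H3K4me1 without Runx3 was found at Slc16a3, at Slc16a6 and at Slc16a10, a carrier of aromatic amino acids. Slc16a4, Slc16a7, Slc16a8, Slc16a9 and Slc16a12 had neither, as Slc16a1. The promoter peak of Slc16a13 is shown on the plus strand with its central RUNX motif in capitals.
Slc16a13, chr11:70034699-70034749: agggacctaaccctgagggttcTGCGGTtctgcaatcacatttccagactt

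Leucine and other large neutral amino acids enter through a pair of proteins, the light chain Slc7a5 (LAT1) and the heavy chain Slc3a2 (CD98), and both genes carried Runx3 peaks, in different arrangements. Slc7a5 lies at chr8:124405052-124431594 on the minus strand, and its 2 Runx3 peaks were intronic. The first, chr8:124422196-124422972, was centred 9010 bp and the second, chr8:124416504-124417095, 14795 bp downstream of the TSS. H3K4me1 covered 99.5% of the first and 80.1% of the second, each through 2 H3K4me1 peaks. Slc7a5 held 9 H3K4me1 peaks that covered 33.2% of its window, a level reached by 0.832% of all genes. There was no Runx3 peak at its promoter.

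Slc3a2 lies at chr19:8781372-8797859 on the minus strand and showed a different arrangement. Its 3 Runx3 peaks all lay outside H3K4me1, and the only H3K4me1 peak of the gene covered 2.20% of the window. The peak chr19:8797384-8798151 was centred 92 bp downstream of the TSS. The peak chr19:8787134-8788142 lay 10221 bp into the gene, 749 bp downstream of an annotated internal TSS, and chr19:8786179-8786892 lay 1852 bp downstream of that same TSS. The nearest H3K4me1 peak was 12363, 2113 and 1158 bp from the 3 peaks.

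The motif nearest the centre of the intronic Slc7a5 peak (plus strand) and of the promoter peak of Slc3a2 (minus strand) is shown with the RUNX motif in capitals. The Slc7a5 motif is TGTGGT, and that of Slc3a2 is TGCGGC, which holds a CpG.
Slc7a5, chr8:124422563-124422613: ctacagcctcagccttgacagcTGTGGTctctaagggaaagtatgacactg
Slc3a2, chr19:8797730-8797759: cgcctttggcgcTGCGGCtaggcggttctt

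**Figure D3:**
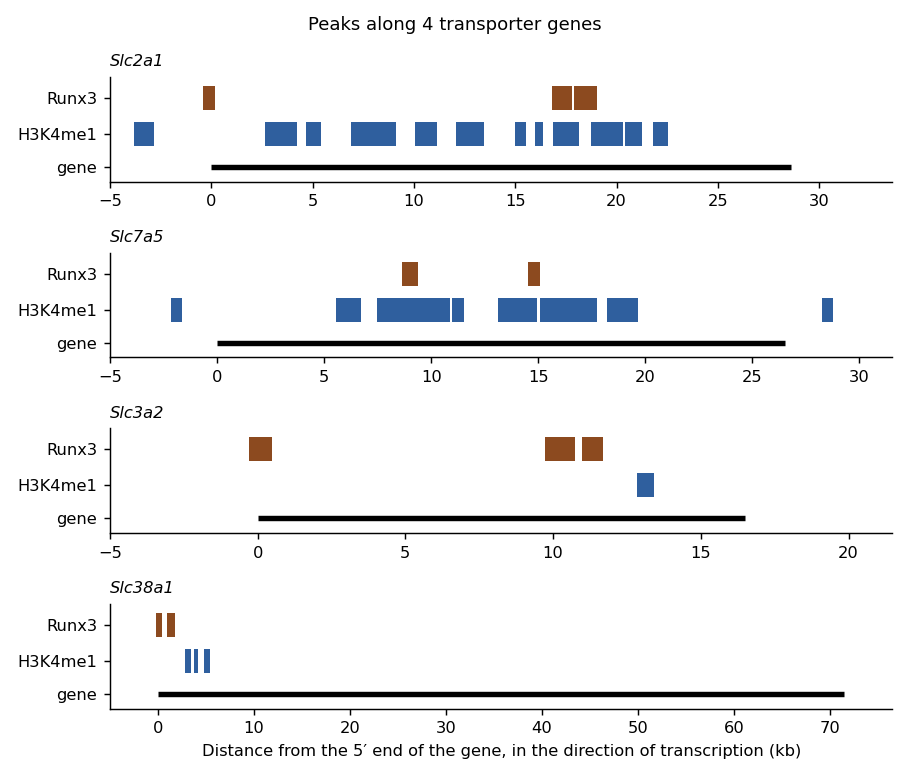
Runx3 peaks (brown) and H3K4me1 peaks (blue) to scale along Slc2a1, Slc7a5, Slc3a2 and Slc38a1 (black line) and their 5 kb flanks, with distance from the 5′ end of the gene in kb on the horizontal axis, in the direction of transcription. The intronic Runx3 peaks of Slc2a1 and Slc7a5 overlap H3K4me1, whereas the Runx3 peaks of Slc3a2 and Slc38a1 and the promoter peak of Slc2a1 do not.

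Of 4 carriers of glutamine and small neutral amino acids described in full, 2 had Runx3 at their promoters and 2 had none. Slc1a5 (ASCT2, the glutamine exchanger, chr7:17366695-17383623, plus strand) had the peak chr7:17366936-17367720, centred 572 bp downstream of its nearest TSS over coding sequence. The single H3K4me1 peak of Slc1a5 lay 3644 bp from it. Slc38a1, a sodium-coupled glutamine carrier at chr15:96401849-96473344 on the minus strand, had 2 Runx3 peaks at its 5′ end. The peak chr15:96472874-96473522 was centred 146 bp and chr15:96471527-96472387 436 bp downstream of an annotated TSS, and the 3 H3K4me1 peaks of the gene followed further into it, the nearest 1016 bp from a Runx3 peak. Slc38a2, a related carrier of the same amino acids, had neither kind of peak in its window. Its nearest Runx3 peak, chr15:96539655-96540603, was centred 10000 bp upstream, and its nearest H3K4me1 peak 8968 bp upstream. Slc1a4 (ASCT1), a carrier of alanine, serine and cysteine, also had neither, with the nearest Runx3 peak 199424 bp and the nearest H3K4me1 peak 85435 bp from its TSS.

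The cationic amino acid carrier Slc7a1 (CAT-1, chr5:149138986-149211480, minus strand) had the peak chr5:149211075-149211867 on its TSS, with the centre 9 bp downstream. Slc7a1 held 7 H3K4me1 peaks, all in introns 13110 bp or more from the 5′ end of the gene, and the nearest was 12167 bp from the Runx3 peak. Slc7a6, a further light chain of Slc3a2, had neither kind, and its nearest Runx3 peak was 42215 bp from the TSS. Slc7a11, the cystine and glutamate exchanger xCT (chr3:50168858-50247535, minus strand), had a Runx3 peak, chr3:50170727-50171340, over the last exon, 76502 bp from the TSS. The nearest H3K4me1 peak to it was 750823 bp away.

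The promoter peaks of Slc1a5 (plus strand), Slc7a1, Slc38a1 and the last-exon peak of Slc7a11 (all minus strand) gave these stretches around the motif nearest the centre, with the RUNX motif in capitals. The motif shown holds a CpG in these 3 promoter peaks and none in Slc7a11. Stretches that touch a UTR are cut to 30 bases.
Slc1a5, chr7:17367345-17367395: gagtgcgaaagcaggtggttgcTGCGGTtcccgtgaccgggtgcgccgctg
Slc7a1, chr5:149211560-149211610: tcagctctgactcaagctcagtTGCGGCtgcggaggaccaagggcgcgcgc
Slc38a1, chr15:96473133-96473162: ccgcggtcgcctTGCGGTctggtagcccag
Slc7a11, chr3:50170901-50170930: aagtgggttgctTGTGGTcacaccttactc

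Runx3 peaks also lay at glutamate transporters that are best known from the nervous system. Slc1a2 (GLT-1) had 2 intronic peaks 31960 and 54987 bp downstream of its TSS, neither on H3K4me1. Slc1a7, a transporter of the retina, had an upstream peak, chr4:107638962-107639604, centred 1501 bp before the TSS and wholly inside an H3K4me1 peak, and an intronic peak at 21118 bp that was 20210 bp from the nearest H3K4me1. The peak assigned to Slc1a1 lay downstream of the gene, nearer to the TSS of 4430402I18Rik. The shown stretches are from the Slc1a2 peak nearest to a TSS of the gene (plus strand) and from the upstream peak of Slc1a7 (minus strand), with the RUNX motif in capitals.
Slc1a2, chr2:102553772-102553822: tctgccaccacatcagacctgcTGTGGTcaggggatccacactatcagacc
Slc1a7, chr4:107639189-107639239: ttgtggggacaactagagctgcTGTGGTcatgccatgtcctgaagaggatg

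In the rest of the amino acid carriers, Slc7a7, a light chain for cationic amino acids, had an intronic Runx3 peak that was 44.1% covered by H3K4me1 and 8 H3K4me1 peaks. Slc7a8, a light chain for neutral amino acids, had a Runx3 peak over coding sequence that was 95.1% covered, nearest to the TSS of Cebpe. Slc38a8 had an upstream peak, wholly inside H3K4me1, that also lay in the window of Mbtps1. Slc38a6 had an intronic Runx3 peak and no H3K4me1, and Slc38a10 had 5 H3K4me1 peaks and no Runx3. Neither kind was found at Slc1a3, Slc1a6, Slc7a2, Slc7a3, Slc7a4, Slc7a9, Slc7a10, Slc7a12, Slc7a13, Slc7a14, Slc7a15, Slc38a3, Slc38a4, Slc38a5, Slc38a7, Slc38a9 or Slc38a11, nor at the heavy chain Slc3a1. In all, 34 of the 61 genes had neither (55.7%), against 52.8% of all genes. Of these, Slc7a3 and Slc38a5 lie on chromosome X, where all genes together had few peaks (4.42% with Runx3 and 3.13% with H3K4me1).

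Promoter peaks and the other Runx3 peaks of these genes differed in their overlap with H3K4me1. None of the 8 peaks at an own promoter overlapped H3K4me1 (Wilson interval 0 to 32.4%), and the nearest H3K4me1 peak was 649 to 12363 bp away. Of the 18 peaks elsewhere, 11 overlapped H3K4me1 (61.1%, 38.6 to 79.7), and the intervals of these shares do not overlap. The whole Runx3 list was split in the same direction, with 20.5% of its 2950 peaks within 1 kb of any TSS overlapping H3K4me1 and 57.8% of the other 8726. Split by any TSS like the whole list, 1 of 9 (1.99 to 43.5%) and 10 of 17 peaks (36.0 to 78.4%) at the transporters overlapped H3K4me1. The intervals of this split do overlap each other, the additional promoter peak being that at Armc7. Over all 26 peaks the share was 42.3% (25.5 to 61.1), against 48.4% of the 11676 Runx3 peaks. Conversely, 14 of the 79 H3K4me1 peaks at these genes overlapped a Runx3 peak (17.7%, 10.9 to 27.6), against 19.9% of all 34204.

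All 26 Runx3 peaks held at least 1 RUNX motif (Wilson interval 87.1 to 100%), with a median of 3 and a range of 1 to 7. The share was 96.0% over all Runx3 peaks and 69.8% in 22683 neighbouring windows of the same width as the peaks, taken 10 kb away. The form of the motif differed by place. TGCGGT or TGCGGC, the forms with a CpG, occurred in 7 of 8 peaks at own promoters (87.5%, 52.9 to 97.8) and in 8 of 18 elsewhere (44.4%, 24.6 to 66.3), 2 intervals that overlap. TGTGGT occurred in 2 of 8 (7.15 to 59.1%) and in 16 of 18 (67.2 to 96.9%). In the whole list, split by any TSS, the forms with a CpG were in 67.0% of peaks within 1 kb of a TSS and in 22.3% of the others. TGTGGT was in 52.7% and 83.7%. Split in that way, the transporters had the forms with a CpG in 8 of 9 and 7 of 17 peaks, and TGTGGT in 3 of 9 and 15 of 17. Base composition moved with the split by own promoter, with a median GC content of 59.5% in the own-promoter peaks and 47.6% in the other 18. Its part in the motif counts was not tested.

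The ETS motif (AGGAAA or the related AGGAAG, and likewise CGGAAA or the related CGGAAG, on either strand) was found in 24 of the 26 peaks (92.3%), against 91.4% of all Runx3 peaks and 84.6% of the windows beside them. The AP-1 motif (TGACTCA or TGAGTCA, which are each other's reverse complement) was found in 10 of 26 (38.5%, 22.4 to 57.5), against 26.2% and 12.6%. Among the 8 own-promoter peaks, 4 held an AP-1 motif (21.5 to 78.5%), those of Slc7a1, Slc3a2 (the internal TSS) and both of Slc38a1. Split by any TSS, 4 of 9 promoter peaks held one (44.4%, 18.9 to 73.3), against 13.7% of all peaks within 1 kb of a TSS. Of the 17 peaks farther away, 6 held one (35.3%, 17.3 to 58.7), against 30.5% of all such peaks. With so few peaks, no trait of the transporters is drawn from these shares. The motifs were counted separately, so matches to different motifs may share bases, and a match is not evidence of a bound factor.

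**Figure D4:**
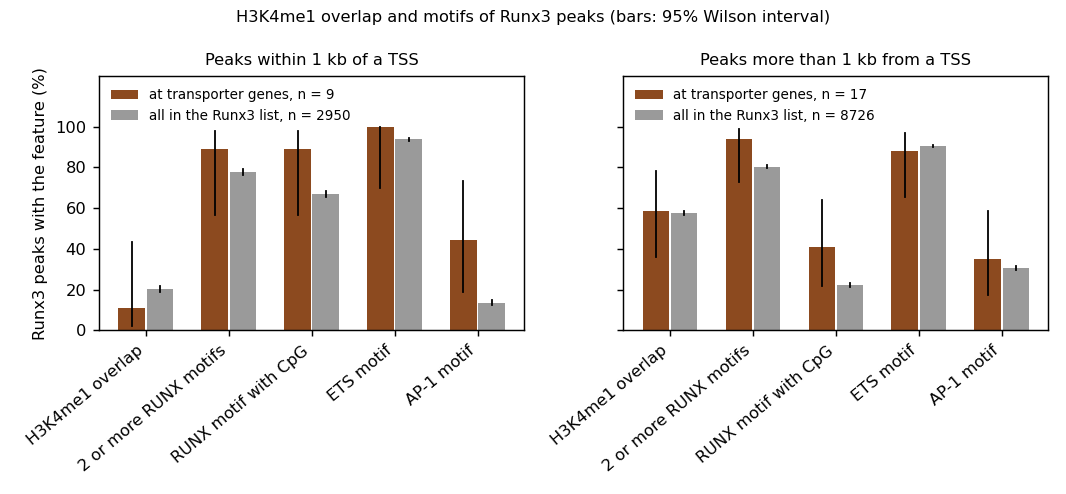
Share of Runx3 peaks, in percent on the vertical axis, that overlap H3K4me1 or hold the named motifs, for peaks within 1 kb of any TSS (left) and farther away (right), at the transporter genes (brown, 9 and 17 peaks) and in the whole list (grey, 2950 and 8726). Bars are shares and lines 95% Wilson intervals, and H3K4me1 overlap is low near a TSS (1 of 9, against 20.5% of the list) and higher elsewhere (10 of 17, against 57.8%).

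Longer genes offer more room for peaks, so the counts were also read by window length. The windows of the transporters had a median of 39.8 kb, against 25.5 kb for all genes, and the density of Runx3 peaks was 7.74 per Mb of window, against 8.19. In windows under 20 kb 2 of 9 transporters had Runx3 (22.2%, all genes 16.9%), from 20 to 40 kb 7 of 22 (31.8%, 30.5%), from 40 to 80 kb 4 of 14 (28.6%, 38.9%), and above 80 kb 6 of 16 (37.5%, 45.2%). Across the 61 genes, which are not independent replicates, Spearman's rho of window length with the number of Runx3 peaks was 0.0766, against 0.276 across all genes. Between the numbers of Runx3 and H3K4me1 peaks rho was 0.636, against 0.537 across all genes, and both counts share the window in which they were taken.

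The enzymes and regulators around these transporters were looked at in the same way, from a fixed list. Of 18 genes of glycolysis and lactate metabolism, 7 had Runx3 and 13 had H3K4me1, and all 7 had both, where 28.9%, 39.8% and 21.5% of all genes did. The 7 were Hk1, Pfkm, Pfkp, Tpi1, Eno1, Pkm2 and Ldha, the last of which encodes the lactate dehydrogenase chain that makes lactate. Pkm2, the gene of muscle-type pyruvate kinase, had 3 Runx3 peaks. Of the partner proteins, the gene of basigin (Bsg), the chaperone of MCT1 and MCT4, had 4 H3K4me1 peaks and no Runx3, and that of embigin (Emb) had 1 Runx3 peak and no H3K4me1. Txnip, whose product promotes removal of GLUT1 from the membrane, had 1 H3K4me1 peak and no Runx3.

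Of 12 regulators of nutrient uptake and amino acid sensing, 9 had Runx3 and 8 had H3K4me1. Myc and Atf4, transcription factors that raise amino acid transport, had 1 Runx3 peak each, and Srebf2, a regulator of sterol synthesis, had 2. Among genes of the mTORC1 pathway, Mtor, Rheb, Tsc2 and Sesn2 had 2 each, Rraga had 1 and Rptor had 4, the last with 40 H3K4me1 peaks in a window of 306.7 kb. Hif1a, Tsc1 and Rragc had none. For comparison, 28.9% of all genes had a Runx3 peak and 39.8% an H3K4me1 peak. Both lists, of enzymes and of regulators, were drawn up with earlier results of these data known, so nothing is inferred from their shares.

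The labelled cell type was looked at through marker genes. All 7 NK cell markers (Ncr1, Klrb1c, Itga2, Gzmb, Prf1, Eomes and Tbx21) had a Runx3 peak, and 6 had H3K4me1. Of 8 markers of other splenic cells, Cd79a, Cd3e and Csf1r had 1 Runx3 peak each. A peak at a gene is not a measure of its expression, and no expression values were analysed here.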

How the data were processed

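Peak positions for Runx3 and H3K4me1 in NKC grown with IL-2 were analysed. The authors used ELAND for alignment to mm9 and retained reads with a unique position. MACS was run on the joined reads with NIS as control, after the larger of the read sets had been scaled down. The deposited peak lists used here give starts and ends in bp, with no score, height or value per library. They do not show depth, and no test between groups could be made from them.

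Starts were converted to count from 1. Genes were the protein-coding records of GENCODE M1 on autosomes and chromosome X, and records of 1 symbol within 10 kb were merged, as for Slc38a9 (62 records, 61 genes). Windows were the gene and 5 kb flanks, and overlap needed 1 bp. Distances were from peak centres. Motifs were searched on both strands, and windows 10 kb from the peaks served as background. The search was tested on simulated data. Python 3.11.15, scipy 1.17.1 and matplotlib 3.10.9 were used. No test was run, and shares have 95% Wilson intervals. The transporters and gene lists were chosen with earlier results of these data known. Transporters with a known part in activated lymphocytes, the 5 with the most Runx3 peaks (6 with ties) and those with a promoter peak, 16 in all, were described in full, and the others by name and counts, except 1 gene that is counted but not reported by name here. Alternatives were other windows, overlaps, TSS sets and peak widths.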

Additional observations from a re-analysis of the deposited data

How the results depend on the processing

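The gene counts depended on how far from a gene a peak was accepted. With 20 kb flanks, 32 transporter genes had a Runx3 peak (52.5%, all genes 41.2%), 36 had H3K4me1 (59.0%, 51.2%) and 29 had both (47.5%, 33.9%), with 50 Runx3 peaks. With the domain rule of GREAT, 36 had Runx3 (59.0%, 42.2%), 41 had H3K4me1 (67.2%, 52.8%) and 33 had both (54.1%, 35.0%), with 78 Runx3 peaks. Under these rules the shares of the transporters were higher than the background values. With 20 kb flanks, however, the backgrounds of Runx3 and H3K4me1 lay inside the transporters' intervals (40.2 to 64.5 and 46.5 to 70.5). That of both kinds lay below its interval (35.5 to 59.8), as did each background under the GREAT rule. The transporters' windows were also longer, with medians of 69.8 kb against 55.5 kb and of 134.9 kb against 90 kb. The density of Runx3 peaks was 9.78 per Mb against 8.57 for all genes with 20 kb flanks, and 5.59 against 4.61 with GREAT domains. With 5 kb flanks it was 7.74 against 8.19. The part of length in these shares was not tested. Of Runx3 peaks at least as wide as the median of 704 bp, 14 lay at 11 of the 61 genes, where 18.6% of all genes had such a peak. All 11 genes also had H3K4me1, a combination for which no share over all genes is given. A RUNX motif in the central 200 bp was found in 84.6% of the 26 peaks, and joining H3K4me1 peaks closer than 1 kb left 50. With the gene body alone, 15 genes had Runx3 (all genes 23.2%) and 22 had H3K4me1 (31.1%). Peak centres in place of overlaps left the counts of genes at 19, 25 and 17. The H3K4me1 overlap of Runx3 peaks was 50% within 1 kb and 26.9% when the mark had to cover 50% of the peak or its centre. The promoter share of the 26 peaks was 34.6% within 1 kb of any TSS, and 26.9% to 42.3% under other TSS distances and sets. Autosomes alone, an alternative chosen after seeing the data, gave 19 of 58 genes with Runx3 (32.8%, all autosomal genes 29.9%). H3K4me1 was then at 25 of the 58 (43.1%, 41.4%). No paired analysis was possible because the lists join the libraries' reads.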

Other observations

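By the domain rule of GREAT, 18 of the 42 transporter genes without a Runx3 peak in the window had one farther away, and 24 had none in either. The matching split of all genes is not given, and the transporters' domains were longer (median 134.9 kb against 90 kb). The 78 peaks in the domains overlapped H3K4me1 in 42 cases (53.8%), and 77 held a RUNX motif. The domain of Slc2a1 held 8 Runx3 peaks. The 5 outside its window were centred 10021 to 108992 bp upstream of the TSS, all 5 overlapped H3K4me1, and one of them, chr4:118762027-118762701, held no RUNX motif. Slc7a5 had 3 further peaks 56558 to 60551 bp downstream of its TSS, past the end of the gene. Slc16a6 had 4 peaks within 14616 to 23569 bp upstream, all on H3K4me1, and none in its window. The domain of Slc7a11 held 5 peaks beside that in its last exon, all 679170 bp or more upstream, so their assignment to Slc7a11 rests on the long gene-free stretch. The single peak in the domain of Slc16a1, chr3:104573967-104574931, lay 131858 bp downstream of the TSS. In the peak lists used here, distance alone links these peaks to the genes.

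Of the 8 transporter genes with H3K4me1 and no Runx3 in the window, 7 had an H3K4me1 peak centred within 1 kb of one of their own TSSs (all but Slc16a10). Of the 17 with both kinds, 4 had one there, namely Slc16a11, Slc16a14, Slc1a5 and Slc1a7. The matching shares over all genes are not given, so no trait of the transporters is drawn from these counts.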
